A study of Arabidopsis thaliana with 12 samples.

Results

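The comparison set 35S::KNAT1 seedlings against wild-type seedlings while gibberellin was supplied, and took in every gene of the table. Its members were 6 of the 12 libraries of the study: the 3 titled 35S::KNAT1_PAC_GA and the 3 titled WT_PAC_GA. All were 7-day-old seedlings of Arabidopsis thaliana, accession Nossen (No-0), grown on MS plates under continuous light and harvested whole. All 6 libraries, both genotypes alike, came from seedlings held in liquid medium with 10 µM paclobutrazol (PAC), an inhibitor of gibberellin synthesis, for 18 h and then given 100 µM GA3, a bioactive gibberellin, together with 10 µM PAC for 5 h. WT_PAC_GA was the untransformed wild type, and 35S::KNAT1_PAC_GA carried KNAT1 under the viral 35S promoter, which is active in most plant cells. The other 6 libraries (WT_PAC and 35S::KNAT1_PAC, 3 each) stayed in PAC without GA3 and serve here as a second pair of the same genotypes. The labels do not say how many transformed lines were used, so a property of the line and an effect of KNAT1 cannot be told apart. They do not say either whether replicates were separate cultures. The p-values below set each difference against the spread between libraries of a group, estimated over all 12 libraries, and that spread may be only technical.

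KNAT1, also called BREVIPEDICELLUS, belongs to the class I KNOX homeodomain proteins, which regulate transcription. Class I KNOX genes work in the shoot meristem and the stem, are kept off in wild-type leaf primordia, and act in pairs with BELL homeodomain proteins. They are known to hold gibberellin low and cytokinin high in meristems, partly by acting on gibberellin synthesis and breakdown genes, and BREVIPEDICELLUS is known as a repressor of lignin genes in the stem. Leaves that express KNAT1 everywhere become lobed. With GA3 in the medium, the gibberellin supply no longer depends only on the plants' own synthesis, so the comparison addresses which genotype differences are present under that supply.

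Total counts ran from 10278956 to 14053594 in the 6 libraries. In 35S::KNAT1_PAC_GA replicate 1, the rRNA gene AT3G41768 took 1.43% of counts and organelle genes took 0.868%, against 0.1103% to 0.197% and 0.139% to 0.263% in the other 5. Of the 102 organelle genes tested, 1 was called, and their median log2 difference was 0.56 with all libraries and -0.76 without that replicate, so no direction is read from them. Green tissue and root marker genes were detected in all 6 libraries, with none of the 24 and 16 markers at 0.

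The overexpressed gene was high in every library labelled as carrying it. KNAT1 (AT4G08150, chromosome 4, 5147700 to 5150966, TAIR10) stood at 22.3, 22.5 and 21.6 counts per 1000000 (CPM) in the WT_PAC_GA libraries and at 399, 430.2 and 483 CPM in the 35S::KNAT1_PAC_GA libraries. The groups were far apart, with means of 22.2 ± 0.459 CPM and 437 ± 42.2 CPM (SD, n = 3), and the log2 difference was 4.30 ± 0.12 (SE; edgeR adjusted p = 2.98e-14). Reads of the transgene and of the plant's own KNAT1 were counted together.

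Differences between the genotypes were widespread. Of 19879 genes tested, 5077 were called (25.5%) by edgeR's quasi-likelihood test at a Benjamini-Hochberg adjusted p below 0.05: 2382 higher (12%) and 2695 lower (13.6%) in 35S::KNAT1. Most differences were small, with a median size of 0.647 on the log2 scale among called genes, and 1429 genes (7.19%) were called and differed at least 2-fold, 661 of them higher and 768 lower. At 8-fold or more, 177 were higher and 177 lower. The libraries of the genotypes did not overlap in 7677 genes (38.6%), among them 4924 of the 5077 called. The balance of directions depended on the scaling: 46.9% of calls were higher with TMM scaling, and 66.5% of 6026 calls with total-count scaling, which moved the median of all genes from 0.01 to 0.115 on the log2 scale. Differences below are relative to the TMM median.

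The other class I KNOX genes were lower or unmoved in the test. STM, which maintains the shoot meristem, stood at 2.12, 3.498 and 1.82 CPM in wild type and 1.08, 0.538 and 1.49 CPM in 35S::KNAT1, a log2 difference of -1.22 ± 0.34 (SE; edgeR adjusted p = 0.0115). Its groups did not overlap, but the call was lost without WT_PAC_GA replicate 2 and without 35S::KNAT1_PAC_GA replicate 2. KNAT6, which acts at organ boundaries, stood at 6.65, 8.33 and 9.46 CPM and 3.31, 3.94 and 4.73 CPM, a log2 difference of -1.02 ± 0.20 (SE; edgeR adjusted p = 0.000785). Every 35S::KNAT1 library was below every wild-type library for KNAT6. KNAT2 overlapped between groups at 1.17, 0.617 and 1.46 CPM against 1.24, 0.628 and 1.14 CPM and was not called (-0.12 ± 0.37, SE). Of 5 genes on the list of KNATM and the class II KNOX genes, the latter of which promote differentiation, 1 was higher: KNAT3 at 0.37 ± 0.097 (SE).

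Among the BELL partners, 2 of 11 tested were higher and 2 lower (36.4% called, beside 25.5% of all genes). BLH9, known as PENNYWISE or BELLRINGER and a partner of KNAT1 and STM in the shoot, rose from 6.87, 6.997 and 7.55 CPM to 11.2, 12.4 and 12.9 CPM, a log2 difference of 0.77 ± 0.14 (SE; edgeR adjusted p = 0.000641). BLH4, a regulator of leaf margin shape, fell from 19.6, 20.1 and 23.01 CPM to 14.7, 14.1 and 15.2 CPM (-0.51 ± 0.10, SE). Both genes were separated in all libraries. BLH1 (0.36 ± 0.12, SE) was also higher and BLH3 (-0.39 ± 0.10, SE) lower. The BLH1 call was lost without any 1 of WT_PAC_GA replicate 2 and 35S::KNAT1_PAC_GA replicates 1 and 2, and the BLH3 call without WT_PAC_GA replicate 3.

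Of 9 members tested on the list of organ boundary and meristem genes, 4 rose, 0 fell and 5 were not called. The share called was 44.4%, beside 25.5% of all genes, and the list's median log2 difference was 0.12 beside 0.01 for all genes. LOB, which limits growth at the base of lateral organs, stood at 1.61, 2.06 and 1.55 CPM in wild type and 4.80, 4.39 and 4.204 CPM in 35S::KNAT1. It differed by 1.37 ± 0.20 on the log2 scale (SE; edgeR adjusted p = 5.09e-05), with no overlap. CUC1, a NAC factor that separates organs and acts upstream of STM, stood at 0.731, 0.103 and 0.637 CPM and 2.57, 2.15 and 1.75 CPM, a log2 difference of 2.04 ± 0.41 (SE). It passed the filter on low counts only through the 35S::KNAT1 libraries. The direction of its call was therefore set by the filter, and the counts and share of this list include it. BOP2, a BTB-ankyrin coregulator at the leaf base, rose from 11.6, 10.3 and 11.5 CPM to 14.5, 15.96 and 16.7 CPM (0.49 ± 0.11, SE). Its relative BOP1 rose by 0.78 ± 0.24 (SE), a call lost without WT_PAC_GA replicate 3 or without 35S::KNAT1_PAC_GA replicate 2 or 3. CUC2, CUC3, LOF1, JLO and CLV1 were not called, and LAS, WUS and CLV3 were below the filter on low counts. Under the stricter filter, 5 CPM in 3 libraries, LOB, CUC1 and BOP1 were not tested, and 1 member, BOP2, was called.

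KNOX homeodomains are known to bind DNA with the core letters TGAC, so the promoters of the 4 boundary genes that rose are shown. Each is the 250 bases before the gene's start in the deposited table, read 5′ to 3′ on the gene's strand from TAIR10.1. On each chromosome the table's last gene ended within the TAIR10.1 length. From 1680 to 2246 genes per chromosome, spread nearly from end to end, had identical start and end in both. For the other genes, start and end were not both identical. Capitals mark TGAC on either strand, written GTCA where it lies on the other strand. LOB lies on the minus strand at chr5:25310974-25311223, CUC1 on the plus strand at chr3:5109633-5109882, BOP1 on the plus strand at chr3:21147308-21147557 and BOP2 on the minus strand at chr2:17240441-17240690.
LOB: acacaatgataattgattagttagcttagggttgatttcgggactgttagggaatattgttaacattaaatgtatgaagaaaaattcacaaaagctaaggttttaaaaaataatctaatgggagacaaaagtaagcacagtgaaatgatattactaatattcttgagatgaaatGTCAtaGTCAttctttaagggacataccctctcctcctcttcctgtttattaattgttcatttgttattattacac
CUC1: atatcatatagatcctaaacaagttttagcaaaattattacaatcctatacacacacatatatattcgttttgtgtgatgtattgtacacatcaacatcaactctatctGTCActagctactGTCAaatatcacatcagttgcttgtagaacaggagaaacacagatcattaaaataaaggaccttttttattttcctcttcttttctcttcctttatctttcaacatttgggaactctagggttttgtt
BOP1: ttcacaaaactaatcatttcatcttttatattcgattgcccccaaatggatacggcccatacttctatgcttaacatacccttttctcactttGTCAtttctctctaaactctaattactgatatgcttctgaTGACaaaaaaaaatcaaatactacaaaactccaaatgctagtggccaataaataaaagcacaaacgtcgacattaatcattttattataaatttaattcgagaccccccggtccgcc
BOP2: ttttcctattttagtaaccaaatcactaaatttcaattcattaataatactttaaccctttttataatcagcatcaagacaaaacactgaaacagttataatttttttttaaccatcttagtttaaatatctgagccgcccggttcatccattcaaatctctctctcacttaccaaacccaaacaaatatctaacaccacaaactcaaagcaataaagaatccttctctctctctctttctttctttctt
The windows of LOB, CUC1 and BOP1 each hold 2 copies of TGAC and that of BOP2 holds 0. Among members of the list that were not called, LOF1 held 3 copies, CLV1 held 2, and CUC2, CUC3 and JLO held 0. The mean over the promoters of all tested genes was 1.54 copies. In CUC1, both copies extend to the longer form TGACAG on the opposite strand (printed as CTGTCA, with its last 4 letters in capitals), and none of the other 3 windows holds TGACAG. Over all 19776 promoters of tested genes, 6.1% held TGACAG on either strand. The share was 5.75% among genes called higher, 6.46% among those called lower and 6.09% among those not called. At least 3 copies of TGAC lay in 21.4% of promoters of genes called higher, 21.1% of those called lower and 20.6% of those not called. These letters were therefore about as common among called genes as among all genes, and a match is a description of the letters, not of binding.

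**Figure D1:**
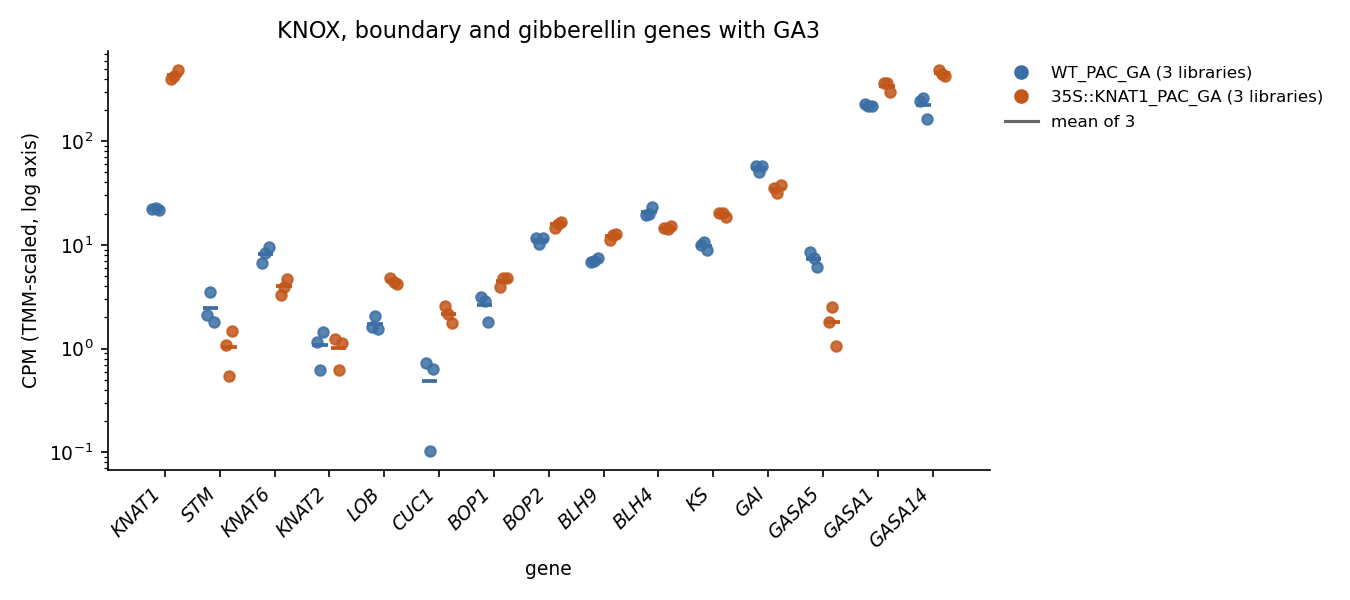
CPM on a log axis for 15 genes in the 3 WT_PAC_GA libraries (blue) and the 3 35S::KNAT1_PAC_GA libraries (orange), with horizontal bars at the mean of 3. KNAT1 rises from a mean of 22.2 to 437 CPM, STM and KNAT6 lie lower in 35S::KNAT1, the boundary genes lie higher, and KNAT2 overlaps; CPM is not divided by gene length, so heights are compared within a gene.

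Leaf patterning regulators were seldom called, at 7.69% of 13 tested on 1 list and 11.1% of 18 on the other, beside 25.5% of all genes. Of 13 genes on the list of leaf KNOX repressors and polarity genes, 1 was called: AS1, which keeps KNOX genes off in leaves, rose from 54.1, 52.6 and 50.7 CPM to 61.3, 72.5 and 65.5 CPM (0.34 ± 0.091, SE), a call lost without 35S::KNAT1_PAC_GA replicate 2. Of 18 TCP and GRF leaf growth genes, TCP3 rose by 0.48 ± 0.086 (SE) and TCP10 fell by 0.33 on the log2 scale. TCP10 overlapped between groups and lost its call without either of WT_PAC_GA replicates 1 and 3 and either of 35S::KNAT1_PAC_GA replicates 2 and 3. With total-count scaling 5 of the 18 were higher and 0 lower.

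Gibberellin synthesis, breakdown and perception genes were called at 28.6% of 7, 33.3% of 6 and 18.2% of 11 tested, beside 25.5% of all genes, so nothing is read from these shares and single genes are described. KS, which encodes ent-kaurene synthase of the early pathway, stood at 9.94, 10.7 and 8.91 CPM in wild type and 20.2, 20.2 and 18.7 CPM in 35S::KNAT1. The groups did not overlap, and the log2 difference was 1.000 ± 0.099 (SE; edgeR adjusted p = 6.68e-07). KAO1, for a later oxidase, was the other of 2 synthesis genes higher among 7 tested (0.41 ± 0.14, SE); its call was lost without any 1 of WT_PAC_GA replicates 1 and 3 and 35S::KNAT1_PAC_GA replicates 2 and 3. GA20OX1, a gene that KNOX proteins are known to repress, was below the filter, with 7, 1 and 3 counts in wild type and 5, 4 and 4 in 35S::KNAT1.

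Of 6 breakdown genes tested, 2 were lower. GA2OX6, a gibberellin 2-oxidase, stood at 12.6, 12.04 and 8.91 CPM in wild type and 7.20, 8.25 and 7.27 CPM in 35S::KNAT1 (-0.56 ± 0.16, SE). ELA1, a cytochrome P450 that inactivates gibberellins, differed by -0.81 ± 0.24 (SE). Neither gene was called without 35S::KNAT1_PAC_GA replicate 1, and without that library 0 breakdown genes were lower. GA2OX6 also lost its call without WT_PAC_GA replicate 1 or 35S::KNAT1_PAC_GA replicate 3, and ELA1 without WT_PAC_GA replicate 3 or 35S::KNAT1_PAC_GA replicate 2.

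Of 11 perception genes, 2 were lower and 9 were not called. GAI, a DELLA repressor of gibberellin responses, fell from 57.5, 50.7 and 58.0 CPM to 35.5, 31.7 and 37.7 CPM, a log2 difference of -0.66 ± 0.088 (SE; edgeR adjusted p = 1.93e-05). GID1B, a gibberellin receptor, fell from 12.4, 9.98 and 10.00 CPM to 7.87, 6.19 and 6.57 CPM (-0.66 ± 0.16, SE). For both genes the highest 35S::KNAT1 library was below the lowest wild-type library. The GASA family of small gibberellin-regulated peptides split, with 2 of 8 higher and 3 lower (62.5% called, beside 25.5% of all genes). GASA5 stood at 8.55, 7.51 and 6.09 CPM in wild type and 1.82, 2.51 and 1.05 CPM in 35S::KNAT1, a log2 difference of -2.04 ± 0.25 (SE; edgeR adjusted p = 7.39e-06), and GASA4 differed by -0.55 ± 0.085 (SE). In the other direction, GASA14 stood at 246, 259 and 164 CPM and 488, 449.9 and 422 CPM (1.02 ± 0.23, SE) and GASA1 at 226, 217 and 220.0 CPM and 362, 366 and 297 CPM (0.63 ± 0.12, SE). The 4 genes were each separated between the genotypes in all libraries.

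Lignin genes were mostly not called, at a share near that of all genes (26.9% of 26 tested, against 25.5%). One was higher and 6 were lower, and 3 were lower with total-count scaling, 2 without 35S::KNAT1_PAC_GA replicate 2. Of the 4 phenylalanine ammonia-lyases, which open the phenylpropanoid pathway, PAL3 rose, PAL4 fell, and PAL1 and PAL2 were not called. PAL3 stood at 3.95, 6.38 and 6.91 CPM in wild type and 24.5, 26.7 and 26.4 CPM in 35S::KNAT1, a log2 difference of 2.19 ± 0.15 (SE; edgeR adjusted p = 5.19e-09). PAL4 stood at 21.2, 20.5 and 19.5 CPM and 10.6, 10.4 and 11.1 CPM (-0.93 ± 0.11, SE; edgeR adjusted p = 8.49e-06). The 3 libraries of each genotype stood apart for both. PRX25, a peroxidase linked to lignin formation, fell by 0.96 on the log2 scale, and HCT, a transferase of monolignol synthesis, by 0.26; HCT lost its call with total-count scaling and without 35S::KNAT1_PAC_GA replicate 2.

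Secondary wall genes showed few calls, 12.5% of 16 polysaccharide genes and 5.56% of 18 transcription factors, beside 25.5% of all genes. Of 16 polysaccharide genes, 2 were lower: IRX15-L, needed for normal xylan, went from 7.45, 6.48 and 8.28 CPM to 4.14, 3.14 and 4.03 CPM (-0.97 ± 0.16, SE), and CTL2, a chitinase-like protein of cellulose assembly, differed by -0.59 ± 0.17 (SE), a call lost without WT_PAC_GA replicate 2 or 35S::KNAT1_PAC_GA replicate 1. Of 18 transcription factors of the secondary wall programme, 1 was called lower, MYB20 (-0.77 ± 0.25, SE). It overlapped between groups and was not called without any 1 of WT_PAC_GA replicates 2 and 3 and 35S::KNAT1_PAC_GA replicates 1 and 2. Of the 5 primary wall cellulose synthase genes, edgeR and DESeq2 each called 0, none had an unadjusted p below 0.05, and 1 was called lower without WT_PAC_GA replicate 2. XCP1, a protease of dying vessels, was 1 of 5 vessel genes called (0.36 ± 0.12, SE), and the call was lost without any 1 of 5 of the 6 libraries with GA3.

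Expansins, which loosen walls during growth, had 11 of 24 tested members lower and 2 higher (54.2% called, beside 25.5% of all genes), with a median log2 difference of -0.41. EXLB1 stood at 11.5, 10.6 and 11.2 CPM in wild type and 2.65, 2.78 and 2.71 CPM in 35S::KNAT1 (-2.03 ± 0.14, SE; edgeR adjusted p = 5.17e-09). EXPB3 fell from 71.2, 73.8 and 70.2 CPM to 27.2, 26.7 and 26.01 CPM (-1.43 ± 0.10, SE), and EXPA15 from 80.2, 72.8 and 71.9 CPM to 34.2, 41.2 and 32.9 CPM (-1.06 ± 0.12, SE). These 3 genes left a wide gap between the groups. EXPA2, known for its role in germinating seeds, had 6.94, 4.32 and 4.55 CPM in wild type and a read in only 1 of the 3 35S::KNAT1 libraries (0, 0 and 0.0876 CPM). This gene passed the filter on low counts only through wild type, so the direction of its call was set by the filter.

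The XTH enzymes, which cut and rejoin wall xyloglucan, split evenly, with 7 of 24 higher and 7 lower and a median of 0.06. The share called was 58.3%, beside 25.5% of all genes. XTH20 fell from 30.4, 32.7 and 35.2 CPM to 11.3, 11.6 and 12.96 CPM (-1.46 ± 0.12, SE) and XTH15 from 75.6, 62.5 and 59.1 CPM to 23.5, 17.7 and 27.6 CPM (-1.52 ± 0.18, SE). XTH17 rose from 3.95, 2.68 and 5.46 CPM to 9.77, 9.86 and 9.72 CPM (1.27 ± 0.20, SE). XTH31, named after its values were seen because it rose furthest, stood at 61.6, 46.9 and 51.0 CPM and 214, 145 and 134 CPM (1.63 ± 0.21, SE; edgeR adjusted p = 0.000171). In each of these 4 the genotypes did not overlap, so members of the family with clear differences lay on both sides.

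**Figure D2:**
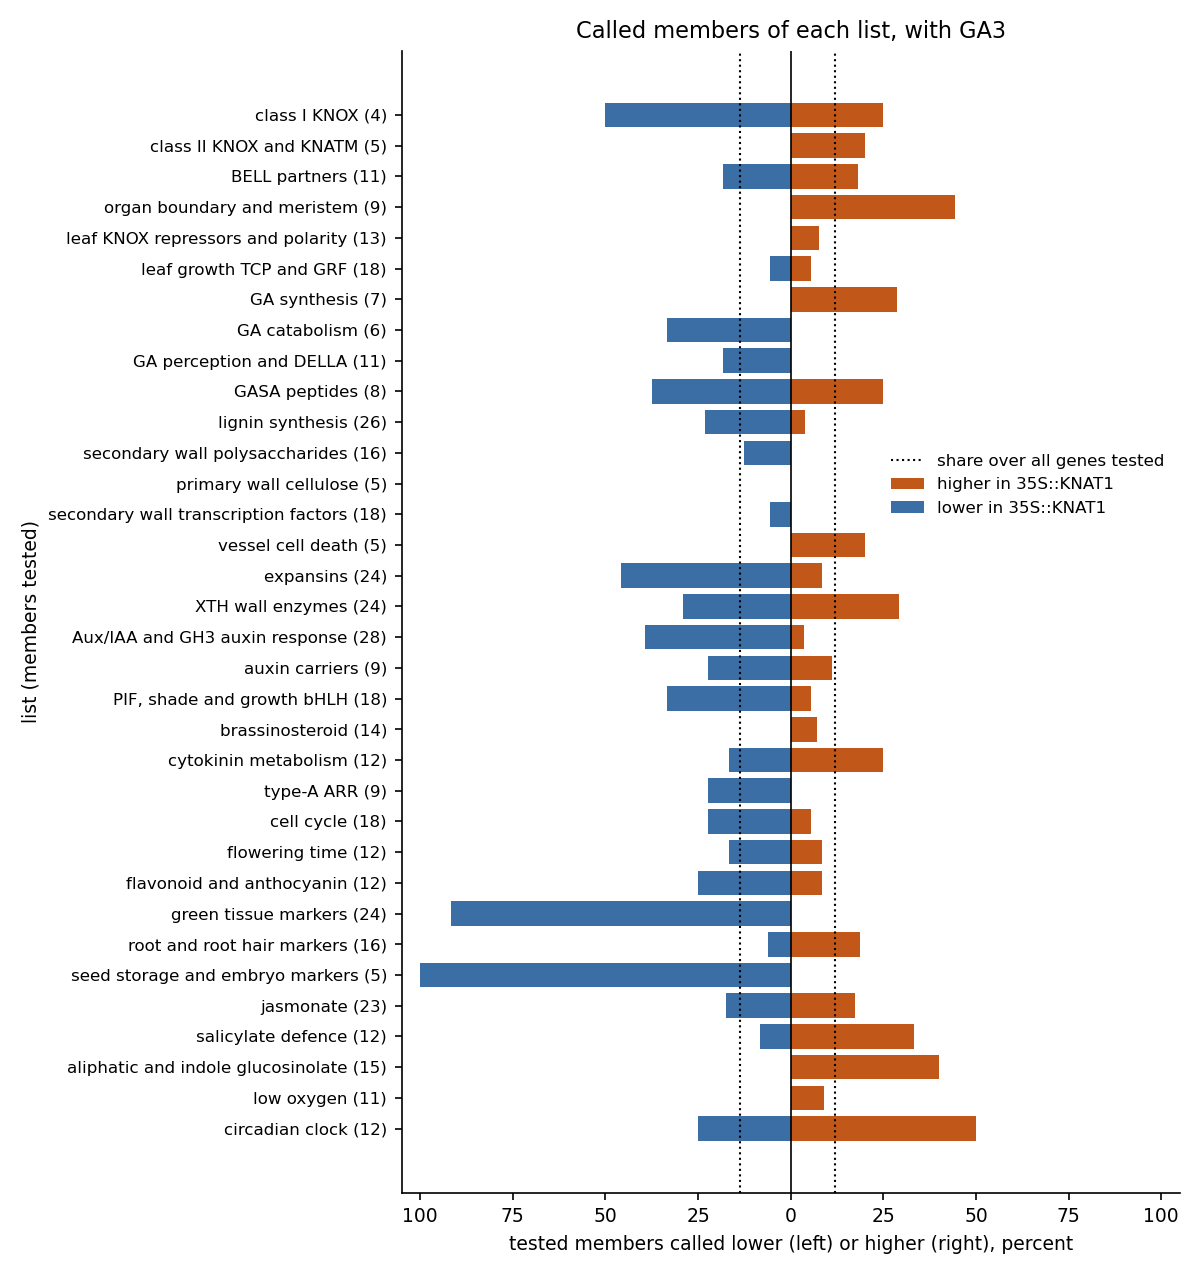
Share of tested members called lower (blue, to the left) or higher (orange, to the right) in 35S::KNAT1 with GA3, in percent of the members tested, for 34 gene lists with the number tested in brackets. Dotted lines mark the shares over all genes, 13.6% lower and 12% higher. Seed storage genes aside, green tissue markers, expansins and auxin response genes reach furthest to the lower side of the lists with 5 or more members tested. The 5 seed storage genes tested passed the filter on low counts only through wild type, so their bar is not compared with the others.

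Of 28 Aux/IAA and GH3 genes tested, which auxin induces quickly and which restrain auxin signalling or conjugate auxin, 11 fell and 1 rose. The other 16 were not called, so 42.9% were called, beside 25.5% of all genes. Without 35S::KNAT1_PAC_GA replicate 1, 7 were lower. IAA29 stood at 17.2, 17.2 and 25.5 CPM in wild type and 4.06, 3.32 and 6.13 CPM in 35S::KNAT1 (-2.14 ± 0.22, SE; edgeR adjusted p = 3.91e-06). IAA2 fell from 104, 126 and 123.2 CPM to 73.9, 58.3 and 68.5 CPM (-0.81 ± 0.10, SE) and IAA1 from 9.50, 13.7 and 13.9 CPM to 4.80, 5.56 and 7.18 CPM (-1.07 ± 0.18, SE). All 3 were separated in every library. Of 9 auxin carriers, 33.3% were called, beside 25.5% of all genes. PIN4 (-0.54 ± 0.091, SE) and LAX2 (-0.59 ± 0.15, SE) were lower, and PIN2, the efflux carrier of root epidermis and cortex, was higher (0.54 ± 0.12, SE).

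On the list of PIF, shade and growth bHLH genes, 6 of 18 were lower, 1 was higher and 11 were not called. The share called was 38.9%, beside 25.5% of all genes, and 3 were lower without 35S::KNAT1_PAC_GA replicate 1 or replicate 2. PRE1, a bHLH named for paclobutrazol resistance, stood at 5.55, 6.69 and 10.00 CPM in wild type and 1.41, 0.986 and 2.71 CPM in 35S::KNAT1 (-2.11 ± 0.46, SE; edgeR adjusted p = 0.00474). PRE6 fell from 9.06, 7.20 and 9.18 CPM to 3.56, 4.57 and 4.03 CPM (-1.07 ± 0.18, SE), and BEE1 differed by -0.40 ± 0.099 (SE). PIF1, a phytochrome-interacting factor that represses germination, was higher at 47.7, 49.3 and 57.9 CPM against 35.4, 34.3 and 36.6 CPM (0.54 ± 0.092, SE). Of 14 brassinosteroid genes, 1 was called (7.14%, beside 25.5% of all genes). It was DET2 (0.31 ± 0.11, SE), and the call was lost under 16 of 22 alternative settings. Among them was the removal of any 1 of the 6 libraries with GA3 except WT_PAC_GA replicate 1.

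Cytokinin metabolism genes differed in both directions, with 3 of 12 tested higher and 2 lower (41.7% called, beside 25.5% of all genes). LOG7, which releases active cytokinin, rose from 10.4, 8.44 and 9.55 CPM to 17.2, 16.9 and 14.3 CPM (0.76 ± 0.14, SE; edgeR adjusted p = 0.000377). CYP735A2, which makes trans-zeatin, was lower (-0.65 ± 0.17, SE), a call lost without WT_PAC_GA replicate 3. The oxidase genes CKX7 and CKX6, which break cytokinin down, differed by 0.45 ± 0.12 and -0.64 ± 0.20 (SE). CKX6 was not called without any 1 of WT_PAC_GA replicates 2 and 3 and 35S::KNAT1_PAC_GA replicates 1 and 2. Of 9 type-A ARR genes, which cytokinin induces, 2 were lower and 0 higher (22.2% called, beside 25.5% of all genes). ARR7 fell from 12.2, 16.7 and 15.4 CPM to 6.87, 8.25 and 8.93 CPM (-0.87 ± 0.19, SE). ARR8 differed by -0.29 ± 0.095 (SE), a call lost with total-count scaling and without WT_PAC_GA replicate 3 or 35S::KNAT1_PAC_GA replicate 1 or 2.

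Cell cycle and flowering genes were called at a share near that of all genes, 25.5%: of 18 cell cycle genes, 1 was higher and 4 lower (27.8%), and of 12 flowering genes, 1 was higher and 2 lower. With total-count scaling 2 cell cycle genes were lower. The D-type cyclin CYCD3;3 fell from 26.4, 33.0 and 28.5 CPM to 19.3, 18.1 and 17.3 CPM (-0.68 ± 0.11, SE), and the kinase inhibitor gene KRP2 rose from 10.3, 9.77 and 9.55 CPM to 14.7, 12.9 and 15.2 CPM (0.53 ± 0.13, SE). The related inhibitor gene SIM was lower (-0.53 ± 0.13, SE), and CYCD3;1 was lower (-0.47 ± 0.12, SE) except with total-count scaling or without 35S::KNAT1_PAC_GA replicate 1. Among flowering genes, the neighbouring FLC relatives MAF5 and MAF3 moved apart: MAF5 stood at 2.12, 4.12 and 2.82 CPM in wild type and 0.331, 1.08 and 0.701 CPM in 35S::KNAT1 (-2.07 ± 0.36, SE), while MAF3 stood at 11.7, 11.0 and 10.5 CPM and 14.6, 17.6 and 19.7 CPM (0.64 ± 0.12, SE). MAF5 passed the filter on low counts only through wild type, so the direction of its call was set by the filter. SOC1, a floral integrator, was lower (-0.69 ± 0.19, SE), a call lost without replicate 2 of either group with GA3.

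The circadian clock genes split by the time of day at which they are known to peak. The morning genes CCA1, LHY and RVE8 were lower and 6 others of the 12 were higher, 75.0% called in all, beside 25.5% of all genes. CCA1, a MYB repressor of evening genes, stood at 57.4, 70.4 and 83.4 CPM in wild type and 14.5, 12.01 and 19.8 CPM in 35S::KNAT1, a log2 difference of -2.19 ± 0.26 (SE; edgeR adjusted p = 0.00013). Its partner LHY stood at 90.4, 93.9 and 146 CPM and 28.6, 21.6 and 29.3 CPM (-2.05 ± 0.33, SE), and RVE8, an activator of evening genes, at 28.1, 29.7 and 38.7 CPM and 7.45, 5.11 and 11.4 CPM (-2.01 ± 0.29, SE). For these 3 the lowest wild-type library was more than double the highest 35S::KNAT1 library.

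The clock genes that rose are known to be expressed from midday to night. PRR5, a repressor of CCA1 and LHY, stood at 16.6, 20.8 and 16.3 CPM in wild type and 37.0, 34.2 and 38.9 CPM in 35S::KNAT1 (1.04 ± 0.10, SE; edgeR adjusted p = 6.77e-07). GI, which stabilises a clock F-box protein, rose from 62.4, 53.3 and 52.0 CPM to 92.6, 88.0 and 102 CPM (0.75 ± 0.10, SE), and ELF4, of the evening complex, from 14.1, 13.99 and 10.8 CPM to 22.9, 24.1 and 23.4 CPM (0.85 ± 0.12, SE). TOC1 (0.61 ± 0.12), ELF3 (0.50 ± 0.095) and LUX (0.38 ± 0.10, all SE) were higher too, and PRR7, PRR9 and CO were not called. LHY, RVE8, TOC1, ELF3 and LUX are named because they complete the list's called members, with their values known. Of the 9 called, all 9 were called in the same direction with PAC alone. Seedlings grew under continuous light, and the labels give no harvest time, so a shift of clock phase, a difference of harvest time and a difference of level cannot be told apart.

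**Figure D3:**
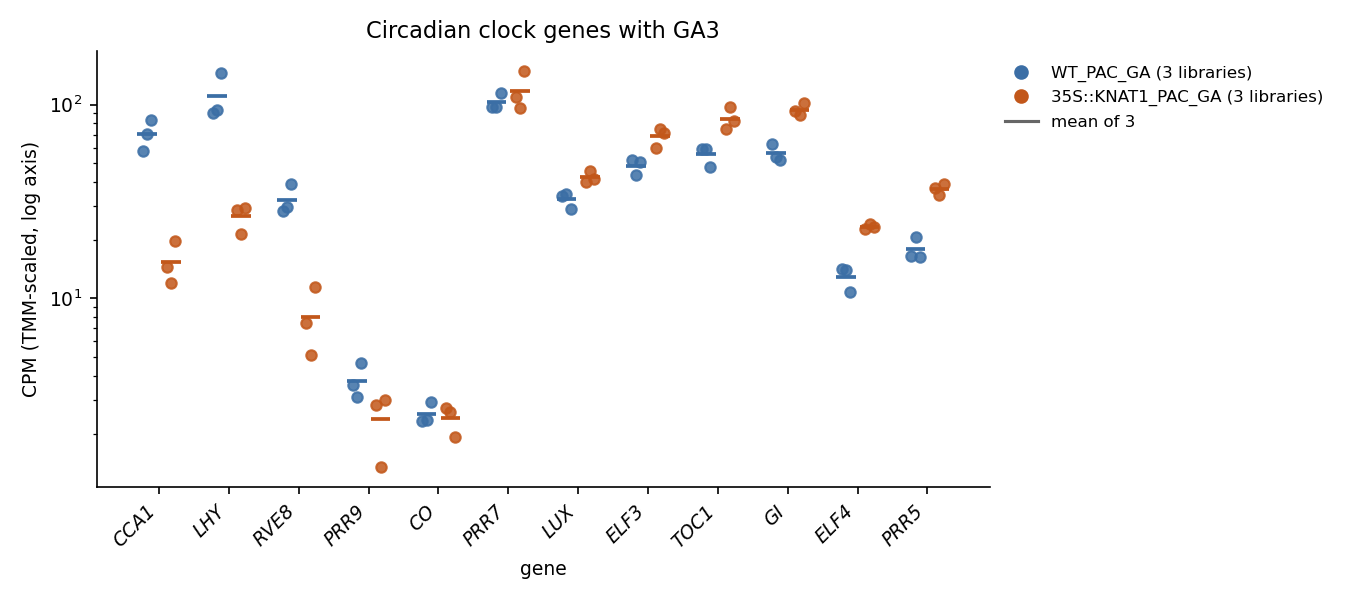
CPM on a log axis for the 12 clock genes in the 3 WT_PAC_GA libraries (blue) and the 3 35S::KNAT1_PAC_GA libraries (orange), with bars at the mean, ordered by the log2 difference. CCA1, LHY and RVE8 lie lower in 35S::KNAT1 without overlap, PRR9, CO and PRR7 were not called, and the 6 on the right lie higher without overlap.

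Photosynthesis genes were lower almost throughout. Of 24 green tissue markers, 22 were lower and 0 higher (91.7% called, beside 25.5% of all genes). Their median log2 difference was -0.97 beside 0.01 for all genes. Their summed level was 73050, 95620 and 91950 CPM in wild type and 43100, 36150 and 50030 CPM in 35S::KNAT1, so every 35S::KNAT1 library was below every wild-type library. RCA, which encodes rubisco activase, stood at 4826, 5592 and 6492 CPM and 2215, 2083 and 2464 CPM (-1.32 ± 0.12, SE; edgeR adjusted p = 3.33e-07). RBCS1A, a small subunit of rubisco, stood at 12670.0, 16185 and 14183 CPM and 6689.5, 6642 and 7048 CPM (-1.08 ± 0.12, SE). RBCS3B (-1.17 ± 0.11, SE) and RBCS1B (-0.80 ± 0.10, SE) were lower as well; these RBCS genes are near-identical copies, and how shared reads were assigned is not given in the sources used here. In whole seedlings, fewer green cells and less RNA per cell cannot be told apart.

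Root markers showed no common direction. Of 16 tested, 3 were higher and 1 lower, and their summed level was 6596, 4184 and 5047 CPM in wild type and 4839, 4504 and 4181 CPM in 35S::KNAT1, which overlap. TIP2;3, a vacuolar aquaporin of roots, rose from 24.3, 19.2 and 27.8 CPM to 44.4, 47.6 and 56.0 CPM (1.05 ± 0.13, SE). The root hair factors RHD6 (0.97 ± 0.26, SE) and RSL4 (1.09 ± 0.30, SE) were higher, and GL2, which represses root hair fate, was lower (-0.60 ± 0.14, SE). Without 35S::KNAT1_PAC_GA replicate 1 neither RHD6 nor RSL4 was called, and RSL4 was not called without WT_PAC_GA replicate 2 either.

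Seed storage transcripts were low in wild type and nearly absent in 35S::KNAT1. The summed level of the 12 seed markers was 114.5, 36.5 and 67.8 CPM in the wild-type libraries and 0.248, 0.897 and 0.876 CPM in 35S::KNAT1. CRU3, a cruciferin storage globulin, had 782, 152 and 344 counts in wild type and 0 in each 35S::KNAT1 library. Counted against a floor of 3 counts over the group, that is at least 400-fold lower. CRA1, another cruciferin, stood at 48.8, 16.8 and 27.0 CPM and 0.0828, 0.0897 and 0.876 CPM, and OLEO1, an oil body protein, had 48, 24 and 66 counts in wild type and 0 in 35S::KNAT1. The 5 seed markers that passed the filter were called lower, and the other 7 did not pass. These 5 passed only through the wild-type libraries, so the direction of their calls was set by the filter and nothing is read from their share. Among the 7, SESA4 had 2, 4 and 0 counts in 35S::KNAT1 and 0 in each wild-type library with GA3. When only the 6 libraries with GA3 were fitted, 2 of the 5 were called. The wild-type libraries differed among themselves by several fold in these genes, and the CRU3 call was lost without any 1 of WT_PAC_GA replicates 1 and 3 and 35S::KNAT1_PAC_GA replicates 1 and 2. How many seed coats or ungerminated seeds were harvested is not given in the sources used here.

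Of 12 salicylate genes, 4 were higher, 1 was lower and 7 were not called (41.7% called, beside 25.5% of all genes). With total-count scaling 7 were higher, and 2 were higher under the stricter filter, where CBP60G was not tested. SARD1, a regulator of salicylate synthesis, stood at 1.53, 1.96 and 0.818 CPM in wild type and 11.4, 3.77 and 6.22 CPM in 35S::KNAT1 (2.32 ± 0.39, SE; edgeR adjusted p = 0.000436). WRKY70, a salicylate-responsive factor, stood at 7.01, 10.8 and 5.27 CPM and 27.2, 14.97 and 16.4 CPM (1.36 ± 0.25, SE), and CBP60G, a relative of SARD1, differed by 1.12 ± 0.27 (SE). In all 3 genes, 35S::KNAT1_PAC_GA replicate 1 was the highest of the 6 libraries and the groups did not overlap. PR5, a marker of the response, went the other way, from 2.12, 2.37 and 2.001 CPM to 0.828, 0.897 and 0.788 CPM (-1.35 ± 0.30, SE).

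ACD6, an ankyrin membrane protein that raises salicylate and defence, had 0, 0 and 0.0909 CPM in wild type and 27.8, 17.2 and 15.3 CPM in 35S::KNAT1 (log2 difference 8.97 ± 0.48, SE). Only 1 wild-type library with GA3 held a read of it. The gene passed the filter on low counts only through 35S::KNAT1, so the direction of its call was set by the filter. Of 23 jasmonate genes, 4 were higher, 4 lower and 15 not called (34.8% called, beside 25.5% of all genes). AOC1, of jasmonate synthesis, rose from 20.6, 18.6 and 15.3 CPM to 34.3, 34.6 and 32.2 CPM (0.89 ± 0.11, SE), and the repressor gene JAZ6 was higher (0.43 ± 0.10, SE). VSP1, a jasmonate-induced storage protein, fell from 95.1, 43.1 and 53.5 CPM to 17.4, 19.9 and 14.01 CPM (-1.91 ± 0.34, SE). THI2.1, a thionin, had 0 counts in all wild-type libraries and 28, 17 and 29 in 35S::KNAT1, at least 26.2-fold higher.

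Of 15 glucosinolate genes, 6 were higher, 0 lower and 9 not called (40.0% called, beside 25.5% of all genes). With total-count scaling 12 were higher. MAM3, which lengthens the side chain of aliphatic glucosinolates, stood at 117, 126 and 135 CPM in wild type and 239, 234 and 215 CPM in 35S::KNAT1 (0.87 ± 0.079, SE; edgeR adjusted p = 2.4e-07). CYP79F2 rose from 38.9, 38.2 and 39.1 CPM to 61.8, 64.3 and 60.6 CPM (0.68 ± 0.082, SE) and BCAT4 from 153, 164 and 151 CPM to 254, 229 and 234 CPM (0.61 ± 0.085, SE), both of the same pathway. CYP83B1, of the indole branch, was higher by 0.47 ± 0.10 (SE). A gene for an enzyme that breaks glucosinolates down, the myrosinase TGG2, went the other way and had the smallest adjusted p of any gene with a symbol. It stood at 142, 129.9 and 125 CPM in wild type and 2.73, 3.94 and 4.29 CPM in 35S::KNAT1 (-5.18 ± 0.12, SE, edgeR adjusted p = 5e-15).

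DFR and LDOX, enzymes late in anthocyanin synthesis, were lower. DFR stood at 0.511, 1.44 and 2.001 CPM in wild type and 0.331, 0.179 and 0.0876 CPM in 35S::KNAT1 (-2.59 ± 0.67, SE; edgeR adjusted p = 0.00843), and LDOX at 1.17, 1.44 and 2.09 CPM and 0.331, 0.269 and 0.438 CPM (-2.13 ± 0.51, SE). CHI (AT3G55120), of the shared early pathway, fell from 44.7, 44.3 and 43.3 CPM to 32.0, 26.6 and 23.7 CPM (-0.68 ± 0.12, SE), while MYB12, which activates flavonol synthesis, rose from 3.95, 3.81 and 4.37 CPM to 10.3, 8.88 and 7.97 CPM (1.161 ± 0.16, SE). On the list of 12 tested, 3 were lower and 1 higher (33.3% called, beside 25.5% of all genes). Of 11 low-oxygen genes, 1 was higher (9.09% called, beside 25.5% of all genes). It was the haemoglobin HB1 (0.51 ± 0.16, SE), a call lost without WT_PAC_GA replicate 1 or 3 or 35S::KNAT1_PAC_GA replicate 1.

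The largest differences were in genes counted in one genotype and at or near 0 in the other. In 81 genes called higher, all 3 wild-type libraries with GA3 had 0 counts, and in 70 called lower, all 3 35S::KNAT1 libraries had 0. The highest of the first set was AT3G47250, a protein of unknown function (chromosome 3, 17399877 to 17401731), with 402, 366 and 469 counts in 35S::KNAT1, at least 439-fold higher. SADHU3-1, a transposable element gene, had 325, 270 and 339 counts and was at least 331-fold higher. AT3G42052, also a transposable element gene, and AT1G14240, a nucleoside phosphatase family member, were at least 283-fold and 278-fold higher. Of the second set, AT5G37125, a transposable element gene, had 321, 248 and 352 counts in wild type and was at least 288-fold lower, AT4G07868, of no known function, was at least 248-fold lower, and AT3G60980, a TPR-like protein, at least 214-fold lower.

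Among genes with symbols, the rises included HSD2, a steroid dehydrogenase family member, from 0.146, 0 and 0 CPM to 48.3, 49.8 and 49.6 CPM, PLC8, a phospholipase C relative, from 0.0731, 0.206 and 0 CPM to 39.9, 40.5 and 42.8 CPM, and the retroelement SADHU6-1, from 0.0731, 0 and 0.182 CPM to 48.2, 43.2 and 46.9 CPM. SADHU3-2 reached 36.7, 37.7 and 39.8 CPM and ST4C, a sulfotransferase, 15.2, 10.04 and 13.4 CPM, each with a read in only 1 wild-type library. DAR5 and DAR6, neighbouring DA1-related genes on chromosome 5, had 0 counts in wild type and were at least 27.3-fold and 20.2-fold higher, as were ANK, an ankyrin protein (at least 27.3-fold), and GLR2.1, a glutamate receptor-like channel (at least 25.5-fold). On the other side, with 0 counts in 35S::KNAT1, the P450 genes CYP705A13 and CYP71A28 were at least 71.4-fold and 34.5-fold lower, and the carboxypeptidase-like genes scpl44 and scpl18 at least 65.8-fold and 33.2-fold lower. Also at 0 were emb2204 (at least 61.4-fold lower), the extensin EPR1 (AT2G27380; 35.7-fold) and the seed genes PER1 (27.6-fold), SESA1 (13.2-fold) and NSP2 (13.2-fold), the last with 31 of its 42 counts in WT_PAC_GA replicate 3.

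Genes with small p that were expressed in both genotypes included SBT3.12, a subtilase, which fell from 49.4, 49.9 and 51.8 CPM to 5.63, 6.54 and 6.74 CPM (-2.997 ± 0.13, SE), and MLP168, from 20.6, 19.6 and 20.01 CPM to 1.99, 1.26 and 2.45 CPM (-3.39 ± 0.18, SE). EMB975, a TPR-like protein needed in the embryo, fell from 34.3, 32.4 and 34.2 CPM to 11.3, 11.1 and 12.3 CPM (-1.54 ± 0.092, SE). All 3 were separated by a wide gap in every library.

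These genes passed the filter on low counts only through the genotype in which they were counted, so the shares of gene classes among them are given as descriptions. Transposable element genes were 19 of the 81 (23.5%) and 7 of the 70, against 0.438% of all genes tested, by the descriptions in the deposited table. NBS-LRR type resistance genes made up 4.94% and 5.71%, against 0.533%. They lay on all 5 chromosomes: 20, 14, 22, 7 and 18 of the 81 and 21, 12, 14, 14 and 9 of the 70 on chromosomes 1 to 5. Calls in general made up 27.7%, 23.7%, 24.7%, 27.2% and 24.5% of the tested genes of chromosomes 1 to 5, and 15.6% to 41.4% in 111 windows of 1 Mb with at least 20 genes tested. One stretch, noticed in the values, held several large rises together: between AT3G47250 and HSD3 (chromosome 3, 17399877 to 17452843) 9 genes were tested, 8 were called and 5 were at least 8-fold higher, namely AT3G47250, PLC8, AT3G47348, HSD2 and HSD3. HSD2 and HSD3 are similar copies, so shared reads between them are uncertain.

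Most of these genes were at 0 in the same genotype without GA3 as well. Of the 81, 72 had 0 counts in all 3 WT_PAC libraries, and all 81 were called higher with PAC alone. Of the 70, 63 had 0 counts in all 3 35S::KNAT1_PAC libraries, and 69 were called lower there. Counts were aligned to the TAIR10 build of the Columbia accession while both genotypes are labelled Nossen, so a count of 0 means that no read was counted at that locus, and sequence differences from the reference were not examined here. Whether the line and the wild type share their genetic background was not tested at these loci, nor at ACD6 and the other genes near 0 in wild type. For all these genes, a difference of background and an effect of KNAT1 cannot be told apart.

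**Figure D4:**
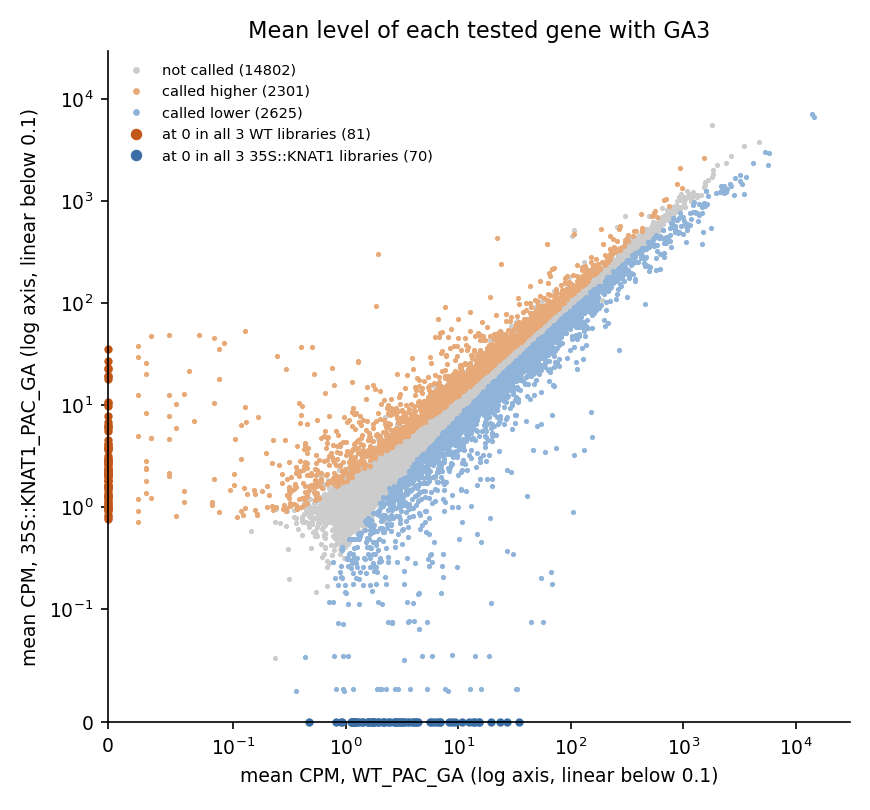
Mean CPM of each tested gene in WT_PAC_GA (horizontal) and 35S::KNAT1_PAC_GA (vertical), on axes that are logarithmic above 0.1 and linear below. Grey points were not called, pale points were called, and the dark points on the axes are the 81 genes at 0 in wild type and the 70 at 0 in 35S::KNAT1.

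The genotype difference with GA3 was set beside the difference with PAC alone, which shares no library with it. With PAC alone 5017 genes were called (25.2%), 2443 higher (12.3%) and 2574 lower (12.9%). Of the calls, 3866 were shared in the same direction, 76.1% of those with GA3 and 77.1% of those with PAC alone, and 0 were called in opposite directions. Among genes called and at least 2-fold different with GA3, 1298 of 1429 (90.8%) were called in the same direction with PAC alone. The log2 differences in the 2 media correlated across genes with Pearson's r of 0.944 and Spearman's rho of 0.81, given as descriptions since genes are not independent. Of the 1211 genes called only with GA3, 1177 had the same sign with PAC alone.

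No gene passed a test of whether the genotype difference itself changed with GA3: edgeR called 0 (0.0%), as did DESeq2's Wald test, with 363 genes at an unadjusted p below 0.05 by edgeR. The genes named above therefore cannot be said to differ between genotypes in the GA3 medium alone. PRE1 illustrates the point: its log2 difference was -2.11 ± 0.46 (SE) with GA3 and -1.10 ± 0.51 (SE) with PAC alone, where it was not called, and the difference of the 2 was -1.005 ± 0.71 (SE; edgeR adjusted p = 1). GASA5 differed by -2.04 ± 0.25 (SE) with GA3 and -1.27 ± 0.20 (SE) without, MYB12 by 1.161 ± 0.16 and 0.70 ± 0.16, and PIN2 by 0.54 ± 0.12 and 0.10 ± 0.12, the last called only with GA3, and none of the 3 passed the test of the difference.

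**Figure D5:**
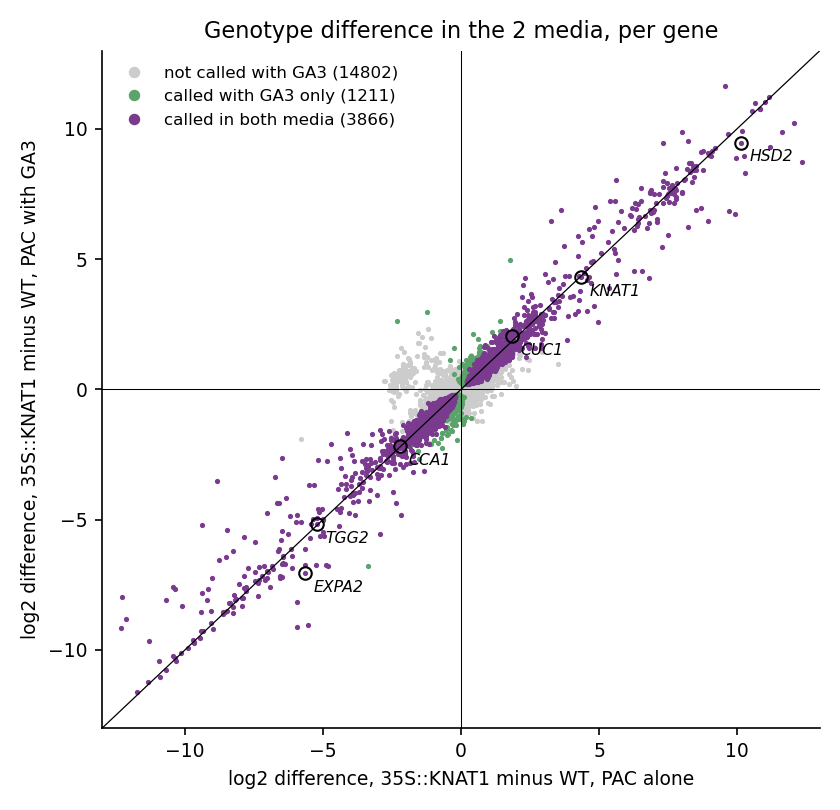
Log2 difference of 35S::KNAT1 minus WT for each tested gene with PAC alone (horizontal) and with PAC and GA3 (vertical), with the line of equality. The 3866 genes called in both media (purple) lie along the line and the 1211 called only with GA3 (green) near the centre; of 87 genes at -1.5 or below with PAC alone that were not called there, 73 are organelle genes, which had high shares in 2 of the 3 WT_PAC libraries.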

How the data were processed

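RNA-seq of whole seedlings was analysed from the gene table that the authors deposited, which holds raw read counts per gene for 12 libraries. Per the submitters' processing notes, the build was TAIR10 and the tools named were TopHat2 2.1, cutadapt 1.8.3, edgeR 3.0.2, FastQC 0.11.5 and DESeq2 1.16.1. How reads were assigned to genes, and whether by strand, is not given in the sources used here. The labels' protocols name both RNeasy and Trizol extraction and both the TruSeq RNA and the TruSeq Stranded mRNA kit, without saying which library had which. Antisense and overlapping genes and near-identical copies are therefore uncertain.

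Genes were filtered with filterByExpr (minimum count 10), scaled by TMM and fitted with edgeR 4.0.16 (quasi-likelihood, robust, R 4.3.3) as 4 group means over the 12 libraries, with 8 residual degrees of freedom. Genotype was contrasted with GA3, with PAC alone, and between media, and p-values were adjusted by Benjamini-Hochberg over all 19879 genes. CPM is scaled for depth, not gene length. Folds against a group at 0 use a floor of 3 counts over the group and cover counting error only. The steps were tested on simulated data. Alternatives were DESeq2 1.42.0, other scalings and filters, fewer libraries and a replicate block.

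Named are KNAT1 and the class I KNOX genes, the up to 4 called members of each list with the smallest p, the 12 largest rises and falls among called genes with a symbol, at least 1 CPM in a group and no overlap, the 4 most abundant genes at 0 in either genotype, and the 4 genes with a symbol and the smallest p in each direction. Any other gene is said to be chosen after its values were seen, or completes or lies outside the calls of a list. The members and lists were chosen with earlier results of these data known. The labels state no pairing, and the main fit has none. The same-numbered replicates of the groups compared with GA3 did not all deviate together, while those of the other group pairs did, so the fit with a replicate block is given with the alternatives.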

Additional observations from a re-analysis of the deposited data

How the results depend on the processing

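Of 131 named genes, 130 were called, 25 of them lost the call under at least 1 of the 22 alternatives in which they were tested, and 0 reversed. With total-count scaling 4007 genes were higher. With an adjusted p below 0.01, 3296 genes were called, 1492 of them higher. With the stricter filter (5 CPM in 3 libraries) 778 genes were called and at least 2-fold different, and with no filter Pearson's r between the media was 0.801. Without the 3 libraries of high rRNA share, 2577 genes were called with PAC alone and 2242 calls were shared. DESeq2's Wald test called 4633 genes with GA3. Leaving out 1 library at a time gave 3984 (without 35S::KNAT1_PAC_GA replicate 2) to 5316 genes called with GA3, 1881 to 2525 higher, 2103 to 2791 lower and 1388 to 1552 at least 2-fold different. It gave 3858 to 5369 called with PAC alone, 3236 to 3765 shared calls, r from 0.924 to 0.949 and 0 calls between media. Replicate numbers were compared for pairing by the correlation of deviations from the group means. WT_PAC_GA and 35S::KNAT1_PAC_GA gave 0.162, -0.03 and 0.101 for replicates 1 to 3, so 1 pair was below 0.1, whereas the other 9 same-numbered pairs (between genotypes with PAC alone, and between media within a genotype) gave 0.128 to 0.389 and each of their libraries correlated best with its own number. This is a hint from the data that same-numbered libraries share a source of variation, which the labels do not state. A replicate block over the 12 libraries gave 6297 calls with GA3 and kept 5064 of the 5077; with only the 6 libraries with GA3 it gave 5184. With the block over the 12 libraries, 10 lignin genes, 5 BELL genes, 2 brassinosteroid genes, 2 root markers, 1 leaf polarity gene and 1 vessel gene were lower, and 6 TCP and GRF genes, 5 low-oxygen genes, 4 expansins, 3 leaf polarity genes, 2 perception genes, 2 PIF and bHLH genes and 2 flavonoid genes were higher. Among genes of a few counts, such as STM, CUC1 and BOP1, depth limits the precision.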
